A study of Mus musculus with 16 samples.

Results

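The transcripts described here came from 7 genes of the hypoxia response: the hypoxia-inducible factor (HIF) alpha subunits Hif1a, Epas1 and Hif3a, their partner Arnt, the prolyl hydroxylases Egln1 and Egln3, and the growth factor gene Vegfa. They were chosen by symbol, and all 7 were found among the 14504 genes measured by RNA sequencing in the dorsal raphe nucleus (DRN), a midbrain nucleus with many serotonin neurons. Hif3a was put into this set because of its response to dexamethasone (DEX), a synthetic glucocorticoid, so its DEX effect is given as a description and nothing is read from its calls. The 16 libraries came from adult male C57BL/6 mice of a single genotype. Control mice without stress received saline (control saline, n = 3) or DEX at 2 mg/kg (control DEX, n = 3). Mice exposed to 30 days of chronic social stress were split by their behavior in an agonistic confrontation test into a passive coping (PS) and an active coping (AS) phenotype, and were given saline (PS saline, n = 2; AS saline, n = 3) or the same dose of DEX (PS DEX, n = 3; AS DEX, n = 2). Tissue was collected 6 h after injection in every group. The phenotypes were thus assigned by behavioral clustering and not by an imposed treatment. Some libraries of PS DEX and AS DEX mice with low Tph2 had been left out by the study. The paper describes more DRN libraries than the 16 used here, and that exclusion does not account for the small saline groups. Why the other libraries are absent is not given in the sources used here.

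HIF proteins are heterodimers of an oxygen-labile alpha subunit and the stable partner encoded by Arnt. When oxygen is plentiful, prolyl hydroxylases encoded by the Egln genes mark the alpha subunit for binding by the von Hippel-Lindau protein and for proteasomal breakdown, so much of the regulation takes place on the protein and is not seen in RNA. When oxygen is scarce, the dimers raise transcription of genes for glucose uptake, glycolysis and vessel growth, Vegfa among them, and of Egln3 as a feedback. Hif3a differs from Hif1a and Epas1 in that several of its splice forms lack a full activation domain and can hold back the other alpha subunits. The counts were made per gene, so its 4 annotated transcripts could not be told apart.

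Sequencing depth was 38207157 to 62447298 reads in the listed genes per library. Tph2, the rate-limiting enzyme gene of serotonin synthesis, stood at 91764 to 182191 normalized counts (reads divided by a size factor of the library) in the 16 libraries. Because the study had left out libraries with low Tph2, this describes the tissue and is not a separate check of its label. The label of the treatment was checked with Fkbp5, a co-chaperone gene that the glucocorticoid receptor induces, with 1241 to 1536 normalized counts in the 8 saline libraries and 5578 to 6958 in the 8 DEX libraries. A pair of libraries had more genes at 0 than the others, con_sal_104 with 248 and AS saline 40 with 228. Some of the results that rest on them are also given without them. Libraries are named by the number in their label, with con_sal and con_dex for control saline and control DEX mice.

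Hif3a was higher after DEX in every phenotype. The gene (ENSMUSG00000004328.15) lies on the minus strand of GRCm38 chromosome 7 from 17031507 to 17062427. In control saline mice it had 308, 145 and 243 normalized counts in libraries con_sal_102, con_sal_104 and con_sal_114. In control DEX mice it had 1306, 652 and 1102 in libraries con_dex_101, con_dex_116 and con_dex_122. con_dex_116 was the lowest DEX library, and it still lay above each of the control saline libraries, as 15.9% of all genes were separated in this comparison.

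In PS saline mice Hif3a stood at 411 and 452 normalized counts in libraries 62 and 68, and in PS DEX mice at 1209, 1318 and 1659 in libraries 6, 34 and 64. In AS saline mice it stood at 295, 341 and 128 in libraries 8, 14 and 40, and in AS DEX mice at 1359.8 and 1352 in libraries 38 and 42. The PS saline libraries were the highest of the saline libraries and AS saline 40 was the lowest. All 8 DEX libraries, from 652 to 1659, were above all 8 saline libraries, from 128 to 452, a separation that 1.88% of the genes showed in either direction. Within PS mice 21.3% of genes, and within AS mice 29.8%, were separated by treatment.

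**Figure D1:**
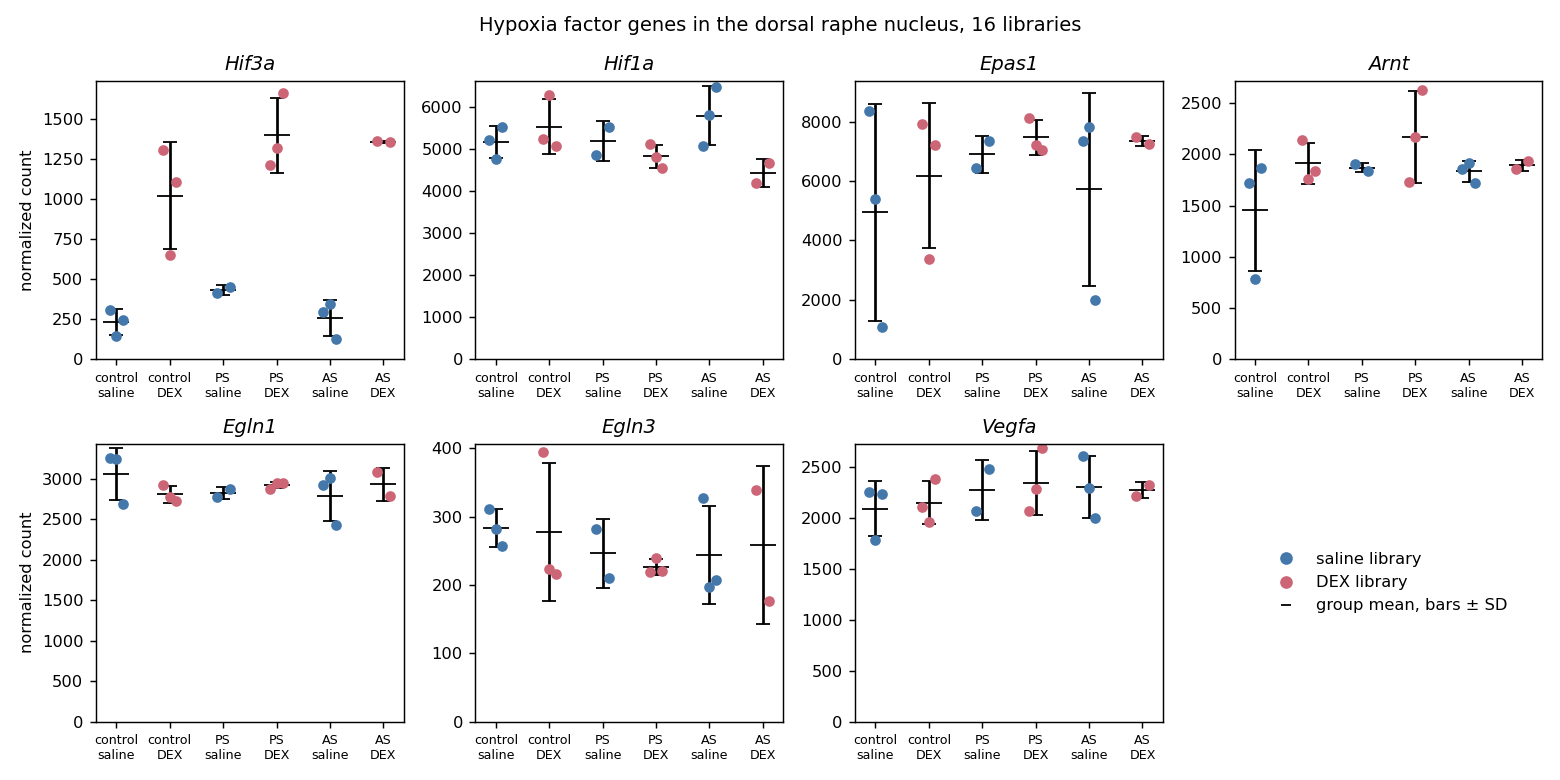
Normalized counts of the 7 genes in each of the 16 libraries, with a panel per gene, the 6 groups on the x axis, points for libraries (blue saline, red DEX) and black bars for the group mean ± SD (n = 2 or 3), all axes starting at 0. Hif3a is the gene whose 8 DEX libraries (652 to 1659) lie above its 8 saline libraries (128 to 452), and Epas1 shows the 3 libraries of low counts, from 1082 to 3381.

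The group means of Hif3a were 232 ± 82.4 normalized counts (SD, n = 3) in control saline and 1020.2 ± 334 (n = 3) in control DEX mice, a 4.40-fold ratio of means. They were 431 ± 29.0 (n = 2) and 1395 ± 235 (n = 3) in PS mice, a 3.23-fold ratio, and 255 ± 112 (n = 3) and 1356 ± 5.33 (n = 2) in AS mice, a 5.32-fold ratio. In log2(normalized count + 1), where the added 1 shrinks the change of genes with few counts, the difference between DEX and saline was 2.14 (SE 0.35, 95% interval 1.38 to 2.90) in controls, 1.68 (SE 0.40, 0.83 to 2.53) in PS and 2.53 (SE 0.40, 1.67 to 3.38) in AS mice. Averaged over the 3 phenotypes it was 2.11 (SE 0.22, 1.64 to 2.59), the 14th largest among 14504 genes. In bulk tissue, fewer cells of a type and less RNA per cell cannot be told apart, and this holds for each gene described here.

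With genes called at an adjusted p under 0.1 in limma, a linear model with shared estimates of variance, 1 of the 7 genes was called in control mice, 0 in PS mice, 1 in AS mice and 1 in the average, in each case Hif3a. The shares of all genes called in these comparisons were 1.26%, 0.703%, 0.689% and 4.31%, and since Hif3a was chosen for this response nothing is read from its calls. In PS mice Hif3a missed the threshold in limma although it was called by edgeR (log2 difference 1.70) and by DESeq2 (1.69) on the whole reads, and it was also called in limma without con_sal_104, without con_dex_116 or without AS saline 40, at a log2 difference of 1.68 in each. In AS mice the call was lost without AS DEX 38 (2.52) or without AS DEX 42 (2.53). Either omission left 1 AS DEX library, which the fit assumed to vary like the libraries of the other groups, and the difference itself hardly moved. The same assumption applies below wherever 1 of the 2 AS DEX or PS saline libraries is left out. In the PS, AS, control and average comparisons the difference stayed positive in each of the 25 alternative settings.

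The promoter window of Hif3a is shown with those of Ddit4 and Slc2a1, a pair of HIF target genes that moved in the same direction after DEX. The windows run from 250 bases before to 50 bases after the annotated start (RefSeq, GRCm38.p6), at chr7:17062378-17062677 on the minus strand for Hif3a, chr10:59951721-59952020 on the minus strand for Ddit4 and chr4:119108495-119108794 on the plus strand for Slc2a1. Capitals mark the hypoxia response cores ACGTG and GCGTG on either strand, so CACGT and CACGC are the same cores read from the other strand.
Hif3a: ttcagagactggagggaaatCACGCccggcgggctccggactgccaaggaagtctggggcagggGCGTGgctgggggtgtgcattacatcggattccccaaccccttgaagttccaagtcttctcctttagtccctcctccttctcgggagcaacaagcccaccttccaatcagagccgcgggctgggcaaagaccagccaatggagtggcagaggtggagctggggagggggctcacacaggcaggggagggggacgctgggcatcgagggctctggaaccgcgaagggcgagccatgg
Ddit4: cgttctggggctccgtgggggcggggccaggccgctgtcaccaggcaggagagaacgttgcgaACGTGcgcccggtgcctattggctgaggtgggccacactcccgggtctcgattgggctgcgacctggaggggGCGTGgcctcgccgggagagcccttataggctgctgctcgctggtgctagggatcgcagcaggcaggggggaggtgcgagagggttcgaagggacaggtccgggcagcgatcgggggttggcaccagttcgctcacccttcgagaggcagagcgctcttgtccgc
Slc2a1: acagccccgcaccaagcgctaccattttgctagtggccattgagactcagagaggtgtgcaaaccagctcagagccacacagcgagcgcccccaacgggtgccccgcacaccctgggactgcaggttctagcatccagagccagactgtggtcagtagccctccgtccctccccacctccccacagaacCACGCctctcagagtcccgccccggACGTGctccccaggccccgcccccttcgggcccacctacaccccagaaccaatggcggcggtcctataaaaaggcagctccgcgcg
Hif3a held GCGTG 2 times and ACGTG 0 times, while Ddit4 and Slc2a1 each held both cores 1 time. At least 1 of the cores was present in 43.8% of 32851 promoter windows of this length (ACGTG in 19.6% and GCGTG in 32.4%), so these matches are common. The glucocorticoid receptor motif, GNACA and TGTNC with 3 bases of any kind between them, searched on both strands, was present in 0.475% of all windows and in none of these 3, which says only that the letters were not in the window. Windows were found for 6 of the 7 genes. Hif1a held ACGTG 3 times, 2 of them the opposite strands of 1 CACGTG, Egln1 held each core 1 time, Egln3 held ACGTG 1 time and Arnt held GCGTG 1 time. Vegfa had a window with each core inside the annotated gene (chr17:46025114-46025413). Its window at the start of the annotated gene (chr17:46032328-46032627) held neither.

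The alpha subunits differed in level and in how much they varied. Per kilobase of annotated exon, the mean over 16 libraries was 1135 normalized counts for Epas1, 884 for Hif1a and 114.4 for Hif3a. Epas1 was above Hif1a in 13 of 16 libraries, and Hif3a was below both in all of them. Egln1, the main oxygen-sensing prolyl hydroxylase gene, followed Hif1a at 804 per kilobase and was below it in 11 of 16 libraries, so the order of these neighbors was not uniform. Vegfa at 521 and Arnt at 231 per kilobase came next, each above the following gene in all 16 libraries.

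Hif3a changed its place in this order with treatment. In saline libraries it was the lowest of the 7 genes, with a mean of 43.3 normalized counts per kilobase (19.1 to 67.4), below Egln3 at 97.3 in 8 of 8 libraries. In DEX libraries it stood at 185.5 per kilobase (97.2 to 247), above Egln3 at 95.1 in 8 of 8 libraries and below Arnt at 250.5 in 8 of 8. As a share of the 3 alpha genes per kilobase, Hif3a made up 1.20% to 3.10% in saline libraries (median 2.03%) and 5.50% to 10.8% in DEX libraries (median 8.15%). The Hif3a share moved with both its own level and that of Epas1, whose share ran down to 16.5% in con_sal_114.

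**Figure D2:**
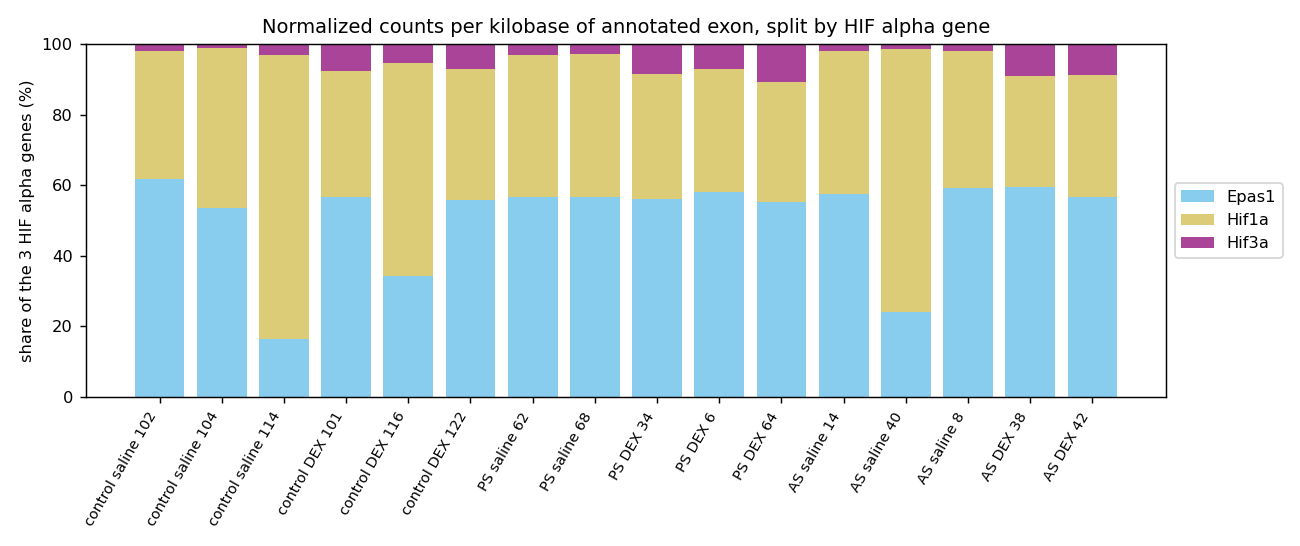
Share (%) of each of the 3 HIF alpha genes in their summed normalized counts per kilobase of annotated exon, as a stacked bar for each of the 16 libraries. The Hif3a part is 1.20% to 3.10% in saline and 5.50% to 10.8% in DEX libraries, and the Epas1 part falls to 16.5% in con_sal_114.

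The oxygen-regulated alpha subunits Hif1a and Epas1 were not called higher after DEX, and the intervals of Epas1 were wide. Hif1a (ENSMUSG00000021109.13, chromosome 12, 73901375 to 73947530, plus strand) had 4771, 5226 and 5539.6 normalized counts in the control saline libraries and 5077, 5242 and 6288 in the control DEX libraries. It had 4870 and 5541 in PS saline and 4565, 4821 and 5117 in PS DEX libraries. These groups overlapped, and the log2 differences were 0.09 (95% interval -0.15 to 0.33) in controls and -0.11 (-0.37 to 0.16) in PS mice.

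In AS mice Hif1a had 5091, 5830 and 6498 normalized counts with saline and 4208 and 4666 with DEX. Both AS DEX libraries were below all 3 AS saline libraries, a separation that 29.8% of all genes showed. AS saline 40, at 6498, was the highest of all 16 libraries for Hif1a. The log2 difference was -0.38 (SE 0.12, -0.65 to -0.12), it missed the threshold, and with library weights it was called.

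Epas1, which encodes the alpha subunit HIF-2 alpha and is abundant in brain endothelium, was the most variable of the 7 genes. The gene (ENSMUSG00000024140.10) lies on chromosome 17 from 86753700 to 86833410 on the plus strand. It had 8378, 5382 and 1082 normalized counts in con_sal_102, con_sal_104 and con_sal_114, and 7925, 3381 and 7218 in con_dex_101, con_dex_116 and con_dex_122. It had 7363, 7833 and 1974 in AS saline libraries 8, 14 and 40, and 7483 and 7236 in AS DEX libraries 38 and 42. The PS libraries were even, with 6458 and 7350 after saline and 7063 to 8141 after DEX.

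con_sal_114, AS saline 40 and con_dex_116 were therefore the 3 lowest libraries for Epas1, in 3 different groups and under both treatments. For Hif3a, AS saline 40 (128) was also the lowest saline library and con_dex_116 (652) the lowest DEX library, while con_sal_114 had 243. The within-group SD of Epas1 was 0.91 on the log2 scale, above 99.9% of the 2956 genes within a 2-fold range of its level. The log2 difference between DEX and saline was 0.46 on average (SE 0.40, -0.39 to 1.31), and leaving out 1 library at a time moved it between 0.17 and 0.66. The lowest value came without con_sal_114 and the highest without con_sal_102, so single libraries decided its size. By phenotype the difference was 0.66 (-0.70 to 2.02) in controls, 0.11 (-1.41 to 1.64) in PS and 0.60 (-0.92 to 2.12) in AS mice. Each of these intervals held 0 and also reached past a 2-fold rise.

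Markers of other tissue components were compared in the same 3 libraries, chosen after their Epas1 values were seen. The summed counts of 8 endothelial markers were 9081 in con_sal_114, 10818 in AS saline 40 and 11339 in con_dex_116, against 8997 to 12190 over all libraries. Those of 8 astrocyte markers were 141021, 154453 and 145375, with AS saline 40 the highest of the saline libraries. The 4 hemoglobin genes summed to 2034, 2185 and 1757 in the same order, and were 445 to 1077 in the other 13 libraries. The 8 microglial markers summed to 9049.8, 11936 and 8464, and AS saline 40 was the highest of all 16 libraries and con_dex_116 the highest of the DEX libraries. The neuronal markers summed to 188893, 217971 and 226110.1, which were 3 of the 4 lowest sums. None of these markers was at 0 in the 3 libraries, and the part of blood or of any cell type in the Epas1 values was not tested.

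Arnt, the shared partner subunit (ENSMUSG00000015522.18, chromosome 3, 95434388 to 95497240, plus strand), had 779 to 1920 normalized counts in saline and 1728 to 2626 in DEX libraries. con_sal_104 at 779 stood below all others, the next being con_sal_102 at 1718. The average log2 difference for Arnt after DEX was 0.24 (SE 0.16, -0.09 to 0.58), and 0.11 without con_sal_104. Its values carry an uncertainty because the processed pseudogene Gm42672, with 14.3 to 77.7 normalized counts, lies inside it on the same strand.

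**Figure D3:**
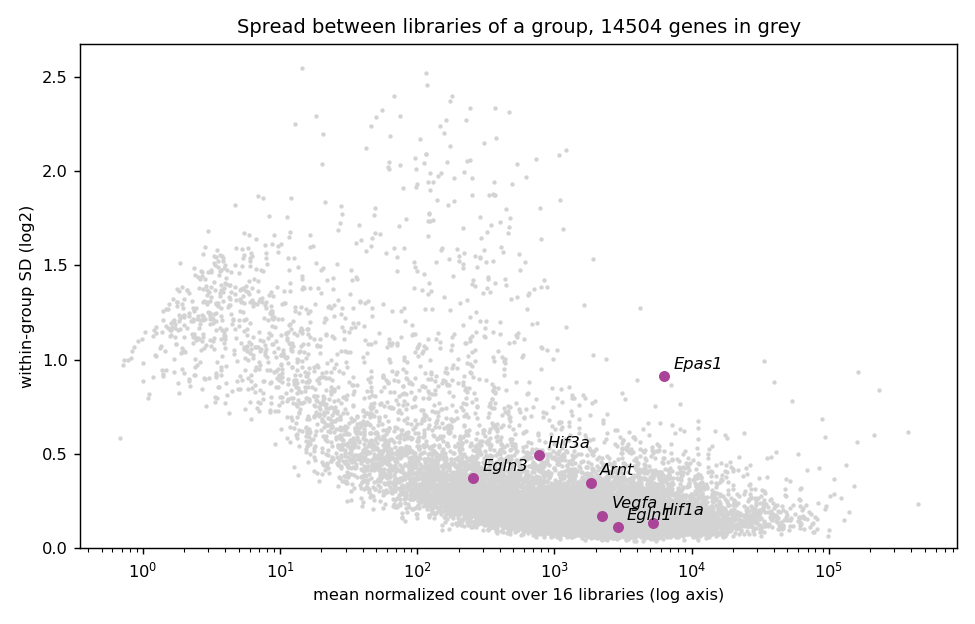
Within-group SD of log2(normalized count + 1), pooled over the 6 groups, against the mean normalized count over 16 libraries on a log axis, for 14504 genes (grey) and the 7 genes (purple, named). Epas1 at 0.91 lies far above genes of its level, Hif3a at 0.49 and Arnt at 0.35 lie in the upper part, and Hif1a at 0.14 and Egln1 at 0.11 lie low.

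Egln1, Hif1a and Vegfa varied least between the libraries of a group. Within-group SDs on the log2 scale were 0.11 for Egln1, 0.14 for Hif1a, 0.17 for Vegfa, 0.35 for Arnt, 0.37 for Egln3 and 0.49 for Hif3a. Among genes within 2-fold of their own level these were at the 21.1 percentile for Egln1, 35.5 for Hif1a, 55.0 for Vegfa, 93.7 for Arnt, 73.2 for Egln3 and 95.7 for Hif3a. The spread of Hif3a is within groups and thus apart from the DEX effect.

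Egln1 (ENSMUSG00000031987.6, chromosome 8, 124908587 to 124949324, minus strand) had 2432 to 3250.4 normalized counts in saline and 2725 to 3075 in DEX libraries. Its average log2 difference for DEX was 0.00 (-0.13 to 0.13), the narrowest interval of the 7 genes. Egln3, the hypoxia-inducible hydroxylase gene (ENSMUSG00000035105.5, chromosome 12, 54178981 to 54203860, minus strand), had 197 to 327 normalized counts in saline and 176 to 394 in DEX libraries, with an average difference of -0.05 (-0.43 to 0.33). Vegfa, the vessel growth factor and a standard HIF target (ENSMUSG00000023951.17, chromosome 17, 46016993 to 46032369, minus strand), had 1780 to 2608 in saline and 1962 to 2681 in DEX libraries, with an average difference of 0.03 (-0.16 to 0.21). For all 3 genes the saline and DEX ranges overlapped almost fully. Apart from Hif3a, the average differences ran from -0.13 for Hif1a to 0.46 for Epas1, and limma called none of these 6 genes in a DEX comparison, except Hif1a in AS mice with library weights.

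**Figure D4:**
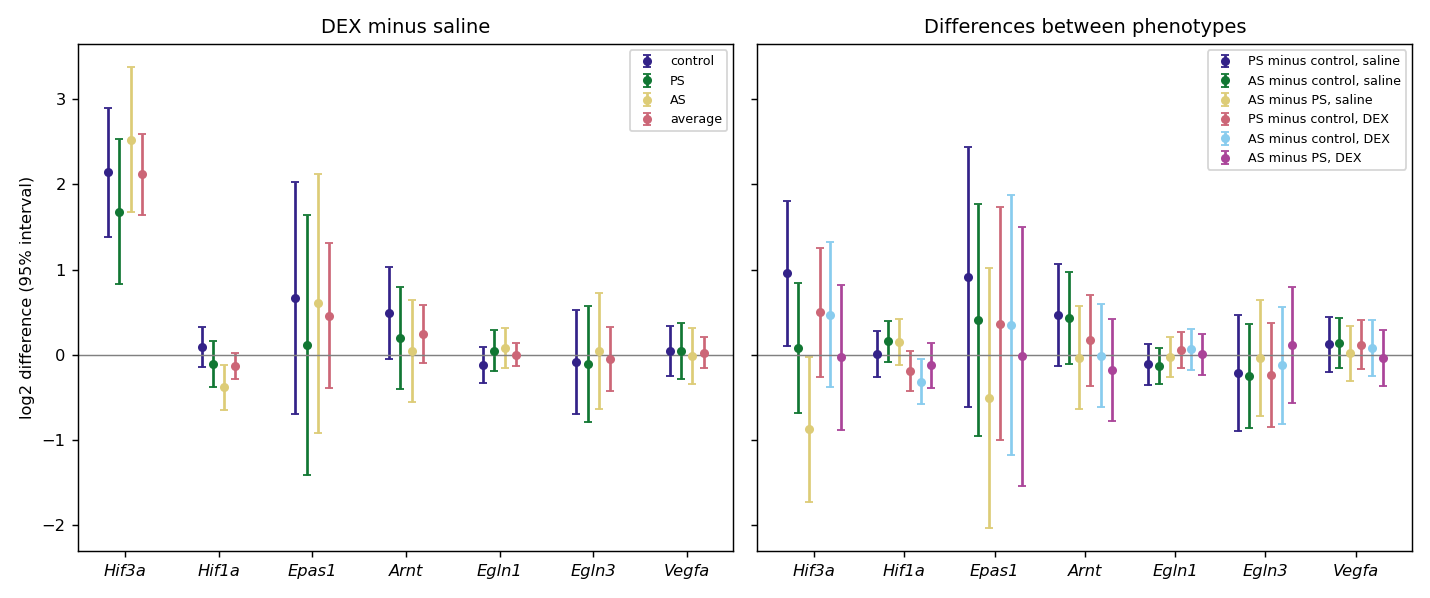
Log2 differences with 95% intervals (limma, log2(normalized count + 1)) for the 7 genes on the x axis, with DEX minus saline in each phenotype and averaged on the left and the 6 differences between phenotypes on the right. On the left only the Hif3a intervals stay clear of 0 in every phenotype, from 0.83 at the lowest, and on the right the PS minus control difference of Hif3a under saline is 0.96 with an interval from 0.11 to 1.81.

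The phenotypes were also compared under saline, without DEX. PS and AS mice were sorted by behavior among stressed mice, so a difference from controls does not separate stress from coping phenotype. Hif3a was higher in both PS saline libraries (411 and 452) than in any control saline (145 to 308) or AS saline library (128 to 341). The log2 difference from controls was 0.96 (SE 0.40, 0.11 to 1.81, limma adjusted p = 0.571), and 28.5% of all genes were separated in either direction. AS minus PS was -0.87 (SE 0.40, -1.72 to -0.02, adjusted p = 0.728), with 23.6% of genes separated, and it was -0.44 without AS saline 40. Both comparisons share the 2 PS saline libraries, and neither passed the threshold, although both had an unadjusted p under 0.05, as 7.67% and 3.41% of all genes did. AS and control mice overlapped, with a difference of 0.08 (-0.68 to 0.84) whose sign turned to -0.22 without con_sal_104, to -0.08 without AS saline 8 and to -0.18 without AS saline 14.

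The glucocorticoid receptor target list of 5 genes was read beside Hif3a in the same saline comparison. In PS minus control 0 of the 5 genes were called by limma, edgeR or DESeq2, and 4 had an unadjusted p under 0.05 in limma, where 7.67% of all genes did. Those 4 were Zbtb16 at 0.63, Per1 at 0.47, Sgk1 at 0.37 and Fkbp5 at 0.24, while Tsc22d3 was at -0.11. All of them rest on the same 2 PS saline libraries as the Hif3a difference. In AS minus control under saline 1 of the 5 had an unadjusted p under 0.05 in limma, where 2.39% of all genes did. Sgk1 was not particular to PS mice, with means of 2023 in control, 2623 in PS and 2733 in AS saline mice. In PS minus control under saline the median log2 difference of the 5 genes was 0.37 against 0.01 over all genes. The list was chosen with earlier results of these data known. Whether glucocorticoid signaling had a part in the Hif3a difference was not tested. con_sal_104, the library with the lowest control value of Hif3a, was also the library with the most genes at 0. Of the control saline libraries it was the lowest for Zbtb16 (584) but the highest for Sgk1 (2102) and Fkbp5 (1356). Its omission left a difference of 0.65 for Hif3a in PS minus control, the lowest of the alternatives.

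The same differences were taken between the DEX groups. Hif3a was 0.50 (-0.26 to 1.26) higher on the log2 scale in PS DEX than in control DEX mice, with overlapping libraries, and 0.47 (-0.38 to 1.32) higher in AS DEX mice, without overlap, which 30.3% of all genes showed. The AS DEX value was 0.18 without con_dex_116. PS DEX and AS DEX differed by -0.03 (-0.88 to 0.82). Over both treatments the PS minus control difference was 0.73 (SE 0.27, limma adjusted p = 0.557, with an unadjusted p under 0.05 as for 6.48% of all genes) and the AS minus control difference was 0.28.

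The response of Hif3a to DEX was compared between phenotypes with an interaction test. The PS response minus the control response was -0.46 (-1.60 to 0.68), the AS minus control response 0.38 (-0.76 to 1.53) and the AS minus PS response 0.85 (-0.36 to 2.05), with limma adjusted p of 1.0, 0.951 and 0.869. A difference between responses was not detectable with these libraries, and each interval reached past a 2-fold difference, downward for PS minus control and upward for the other two. The AS minus control value turned to -0.05 without AS saline 40.

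Of the other 6 genes, none was called by limma, edgeR or DESeq2 in a comparison of phenotypes or in an interaction. At an unadjusted p under 0.05 there was Hif1a alone among them, in AS DEX minus control DEX at -0.31 (SE 0.12, limma adjusted p = 0.990) and in the AS minus control interaction at -0.48 (SE 0.17, adjusted p = 0.941). The shares of all genes at an unadjusted p under 0.05 were 3.5% and 4.02% in these comparisons. The share of genes called at the adjusted threshold was 0.0138% or less in every comparison of phenotypes, 0.00689% in AS DEX minus control DEX, and 0.0% in each interaction. Both values rest on the same AS DEX libraries as the lower Hif1a counts described above.

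The wider hypoxia pathway was read from 5 lists with 79 genes, of which 66 were measured. The lists were chosen with earlier results of these data known, so their counts are a description and no enrichment is read from them. Averaged over phenotypes, 7 of the 66 genes rose after DEX and 1 fell in limma, where 2.78% of all genes rose and 1.53% fell. The median log2 difference of the 66 genes was -0.05, against 0.00 for all genes, and 27 of the 66 were above 0. The genes that rose were 2 of 18 for glucose uptake and glycolysis, 4 of 20 other HIF targets and 1 of 9 further bHLH-PAS factors.

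**Figure D5:**
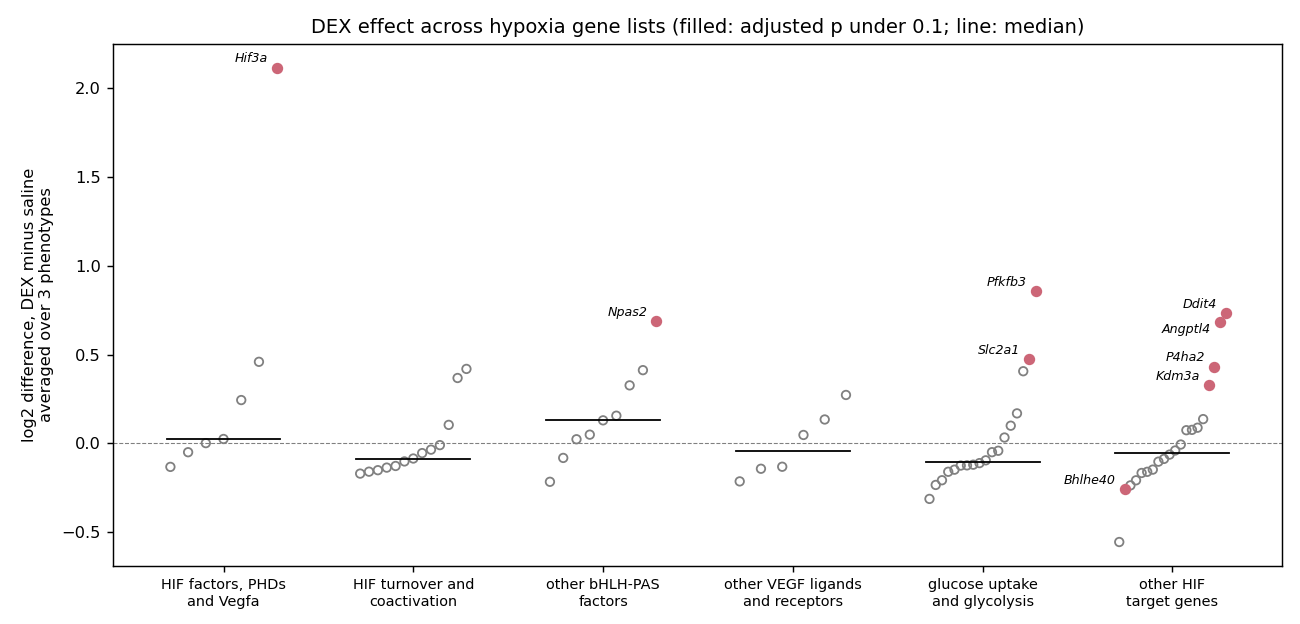
Log2 difference of DEX minus saline averaged over the 3 phenotypes for each measured gene (circle) of the hypoxia gene lists on the x axis, with filled circles for an adjusted p under 0.1 and a line at the list median. Hif3a at 2.11 stands above every other gene shown, the next being Pfkfb3 at 0.86, and the list medians lie between -0.10 and 0.13.

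Pfkfb3, whose enzyme makes the activator of phosphofructokinase and so speeds glycolysis, rose by 0.86 (SE 0.09, adjusted p = 3.61e-05). Its counts were 2897 to 4466 in the 8 saline and 6364 to 8555 in the 8 DEX libraries. Slc2a1, the glucose transporter gene of the blood-brain barrier, rose by 0.47 (SE 0.06, adjusted p = 0.000203), from 4308 to 6026 normalized counts with saline to 6506 to 7352 with DEX. Ddit4, an inhibitor of mTORC1 signaling that is induced by hypoxia and by glucocorticoids, rose by 0.73 (SE 0.09, adjusted p = 0.000142), from 1570.2 to 1992 with saline to 2260 to 3516 with DEX. In these 3 genes all 8 DEX libraries were above all 8 saline libraries, a separation that 1.88% of all genes showed in either direction. No single library ended their averaged calls. Npas2 and P4ha2, described next, were also separated, by narrow gaps. The highest saline and lowest DEX counts were 188 and 194 for Npas2, and 1443 and 1444 for P4ha2.

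P4ha2, a collagen prolyl hydroxylase gene, rose by 0.43 (SE 0.08, adjusted p = 0.00861), also whichever library was left out. Npas2, a clock bHLH-PAS factor, rose by 0.69 (SE 0.17, adjusted p = 0.0408), and lost its call without PS saline 62 (0.65) or AS DEX 38 (0.61). Angptl4, a lipoprotein lipase inhibitor gene, rose by 0.68 (SE 0.19, adjusted p = 0.0751), but its call held only when the omitted library was con_sal_114, con_dex_116, PS DEX 6 or AS saline 40, with values from 0.60 to 0.78. Kdm3a, a histone demethylase gene, rose by 0.33 (SE 0.09, adjusted p = 0.0632), and its call ended on leaving out 10 of the 16 libraries in turn, at 0.30 without con_sal_104, 0.32 without con_dex_116, 0.33 without con_dex_122 or PS DEX 34, 0.34 without PS saline 62, 0.32 without PS saline 68, 0.31 without AS saline 8, AS saline 14 or AS DEX 38, and 0.34 without AS DEX 42. Bhlhe40, a transcriptional repressor gene, fell by 0.26 (SE 0.07, adjusted p = 0.0526), and its call ended without con_dex_101, PS saline 62 or 68, PS DEX 34 or 64, AS saline 14 or AS DEX 42, with values from -0.30 to -0.21 over all omissions. From saline to DEX its mean went from 1854 to 1489 in controls and from 1783 to 1340 in PS mice, but only from 1696 to 1649 in AS mice.

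Within phenotypes the pathway calls were few. In control mice Pfkfb3 (0.94), Slc2a1 (0.55) and Ddit4 (0.72) rose, and the Ddit4 call ended without con_dex_101 (0.64) or con_dex_122 (0.65). In PS mice the same 3 genes rose, Pfkfb3 by 0.71, Slc2a1 by 0.52 and Ddit4 by 0.82, but leaving out PS saline 62, PS saline 68 or PS DEX 34 ended all 3 calls, at 0.68 to 0.76 for Pfkfb3, 0.48 to 0.56 for Slc2a1 and 0.75 to 0.84 for Ddit4. PS DEX 64 also ended those of Slc2a1 (0.50) and Pfkfb3 (0.67), and PS DEX 6 (0.70), con_dex_101, AS DEX 38 and AS DEX 42 (0.71 each) that of Pfkfb3. In AS mice Pfkfb3 rose by 0.93 and Ddit4 by 0.66 (adjusted p = 0.0994), with Slc2a1 at 0.36 missing the threshold. The Pfkfb3 call in AS mice ended without AS DEX 38 (0.92) or AS DEX 42 (0.93), and that of Ddit4 without any library other than con_sal_104 and con_dex_116, with values from 0.47 to 0.86.

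The genes that set HIF protein turnover and activity were not called. Of 13 such genes 0 passed in limma after DEX on average, with a median log2 difference of -0.08. An unadjusted p under 0.05 was found for 2 of the 13, and for 2033 of all 14504 genes in that comparison. edgeR called 0 of the 13 and DESeq2 called 1, the coactivator gene Crebbp. Vhl, the E3 ligase subunit gene that recognizes hydroxylated HIF alpha, was at -0.13 (adjusted p = 0.522). Egln2, the third prolyl hydroxylase gene, was at -0.05 (adjusted p = 0.760), and Hif1an, which encodes the asparaginyl hydroxylase, was at 0.10 (adjusted p = 0.625). Arnt2, the neuronal paralog of Arnt, was at 0.02 (adjusted p = 0.941). Of the glycolytic targets, Ldha was at -0.12 (adjusted p = 0.524) and Pdk1 at 0.03 (adjusted p = 0.786), and of 6 further VEGF ligands and receptors 0 passed in limma, edgeR or DESeq2 and 0 had an unadjusted p under 0.05, with a median of -0.04.

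In the comparisons of phenotypes and the interactions 0 of the 66 genes were called by limma, edgeR or DESeq2. In PS minus control under saline 5 of the 66 had an unadjusted p under 0.05, where 7.67% of all genes did, and 4 of them belonged to the 13 turnover and activity genes. These 4 were Vhl at -0.38, Elob at -0.38, Ep300 at 0.68 and Crebbp at 0.56, the last 3 named after their values were seen. In AS minus control and in AS minus PS under saline there was 1 each, where 2.39% and 3.41% of all genes did.

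The genes whose pattern was most like that of Hif3a were found by the root mean square difference of log2 deviations from the control saline mean, over 16 libraries. Zbtb16, a zinc finger transcription factor gene, was nearest at 0.37, followed by Hr, the hairless corepressor gene, at 0.40 and Fkbp5 at 0.53. Pla2g3, a secreted phospholipase gene, and Fsd2 came next at 0.58 each. None of the 66 pathway genes and none of the other 6 genes was among the nearest 5. This likeness is a description over libraries that all share the DEX contrast used to choose Hif3a. The deviations were not scaled, so only a gene with a DEX change of similar size could be near. No pathway gene changed as much as Hif3a, so nothing is read from their absence among the nearest 5.

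Cell type markers were compared between treatments because the DRN punch holds glia, vessels and neurons. The 8 endothelial markers summed to 8997 to 11296 normalized counts in saline and 10330 to 12190 in DEX libraries, with 1 gene higher (Slc7a5) and 1 lower (Tek) in the averaged comparison. In that comparison, used for all marker calls here, limma called 2.78% of all genes higher and 1.53% lower. The 8 astrocyte markers summed to 122185 to 154453 and 133346 to 145375, with 1 higher (Fgfr3) and 0 lower. Of the 8 microglial markers 3 fell (Cx3cr1, P2ry12 and Aif1), with sums of 7600.2 to 11936 in saline and 6955 to 8464 in DEX libraries. Of the 8 oligodendrocyte markers 2 fell (Mog and Cnp), and of the 8 mural cell markers 1 fell (Vtn). None of the markers of neurons, serotonin neurons, ependyma, choroid plexus or blood was called by limma or edgeR, and DESeq2 called 1, the choroid plexus marker Clic6. In limma 1 neuronal, 1 serotonin neuron and 1 choroid plexus marker had an unadjusted p under 0.05, as 2033 of all 14504 genes did. Of the choroid plexus markers, 1 was at 0 in 1 saline library. The part of these shifts in the Hif3a values was not tested.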

How the data were processed

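RNA-seq libraries of polyA RNA from DRN punches of 16 mice were analyzed in 6 groups taken from the labels. Per the labels and methods, the authors used fastp v0.20.1 for trimming and HISAT2 v2.2.1 for alignment to mm10 (GRCm38). They counted reads with featureCounts (Subread 2.0) and normalized with DESeq2 v1.36.0. Whether counting used the strand is not given in the sources used here. The signal deposited by the authors is a normalized count, reads divided by a size factor per library. The authors' deposited comparison tables (log2 fold changes, p-values) were not used. All values became whole reads (tolerance 0.01 reads) when multiplied by the size factor. The table was tested whole, although 973 genes were under 10 reads in some library.

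Values as log2(normalized count + 1) were fitted with limma 3.58.1 (R 4.3.3) with a mean per group over 16 libraries, eBayes with trend, 10 residual degrees of freedom and Benjamini-Hochberg adjustment over 14504 genes per contrast. Calls used an adjusted p under 0.1. Alternatives were other pseudocounts (0.1 and 10), a mean of at least 100, TMM scaling, library weights, only the groups compared, leaving out each library, and edgeR 4.0.16 and DESeq2 1.42.0 on the whole reads. The fit was tested on simulated data. Leaving out the 2 libraries with over 200 genes at 0 was chosen after seeing the data. The text names the 7 genes, called genes of the pathway lists (at most 6 per list and contrast, smallest p first) with Vhl, Egln2, Hif1an, Arnt2, Slc2a1, Ldha and Pdk1, Fkbp5 as label check, and the 5 genes most like Hif3a. Named outside this rule were Tph2, the receptor targets Per1, Sgk1 and Tsc22d3, the turnover and activity genes Crebbp, Elob and Ep300, and called cell type markers. The genes and lists were chosen with earlier results of these data known. Annotation was GENCODE vM21 (GRCm38), which may differ slightly from the gene models that were counted.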

Additional observations from a re-analysis of the deposited data

How the results depend on the processing

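No paired analysis was possible because the library numbers in the labels are different in every group. Hif3a kept a positive DEX difference in each phenotype and on average under each of the 25 alternative settings. In PS mice Hif3a passed the threshold with library weights (1.63), with only the groups compared (1.68), without the 2 libraries with most genes at 0 (1.68), by edgeR (1.70) and by DESeq2 (1.69), and leaving out 1 library gave 1.55 to 1.78. In AS mice it missed the threshold with only the groups compared (2.53), and leaving out 1 library gave 2.09 to 2.79. The number of the 7 genes called after DEX in PS mice, 0 in the report, was 1 with library weights, with only the groups compared, without the 2 libraries, by edgeR and by DESeq2, and 0 to 1 without 1 library. In AS mice it was 2 with library weights (Hif3a and Hif1a), 0 with only the groups compared and 0 to 1 without 1 library. Sign changes, all in differences that were not called, were found for Hif3a in AS minus control under saline (-0.081 and -0.18 without AS saline 8 and 14, -0.22 without con_sal_104, the range without 1 library being -0.22 to 0.52), in AS minus PS under DEX (0.019 with library weights, 0.10 without PS DEX 64, range -0.12 to 0.10) and in the AS minus control interaction (-0.13 with library weights, -0.049 without AS saline 40, range -0.049 to 0.69). The number of pathway genes called after DEX was 1 in control mice with only the groups compared (3 in the report), where leaving out 1 library gave 2 to 4. In PS mice (3 in the report) it was 5 with library weights and 0 to 3 without 1 library. In AS mice (2 in the report) it was 1 with TMM scaling, 10 with library weights, 0 with only the groups compared, 1 without the 2 libraries and 0 to 2 without 1 library. On average (8 in the report) it was 4 to 9 without 1 library. The cause of these changes was not tested.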
